A study of Arabidopsis thaliana with 30 samples.

Results

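A set of 5 genes of sulfur and glucosinolate metabolism was examined in Arabidopsis rosette leaves, of 13286 genes to which the annotation used gave a probe set of their own. They were taken by name, with earlier results of these data known. Each had exactly 1 probe set: APS3 (AT4G14680, 245254_at), SIR (AT5G04590, 250846_at), AT1G04770 (261177_at), UGT74B1 (AT1G24100, 264873_at) and AT2G31790 (263477_at). AT1G04770 is known as SDI2 and AT2G31790 as UGT74C1, and these names are used here. Leaves of Col-0, the wild type, and of the catalase mutant cat2-1 were measured on Affymetrix ATH1 arrays in 10 groups of 3. For 5 weeks all plants were kept in soil under 3000 ppm CO2 and 8 h of light a day. Leaves were taken there (hCO2) or following a transfer to air with 400 ppm CO2 for 2 or 4 days, either with the same short days (groups SD2 and SD4) or with 16 h of light (groups LD2 and LD4). Harvest was 7 h after the light came on. Since long days were not combined with 3000 ppm, LD2 and LD4 differ from hCO2 in both air and day length. The labels of the Col-0 hCO2 arrays give 300 ppm where the growth protocol gives 3000 ppm, and the protocol value was used. Per the design text, 2 leaves of different plants were pooled for each array, and the 3 arrays of a group are biological replicates.

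Plants take up sulfate, activate it with ATP through ATP sulfurylase and reduce it in the plastid, where sulfite reductase makes the sulfide that goes into cysteine and then glutathione. In Brassicaceae much sulfur also enters glucosinolates, defence compounds whose sulfur-bearing core is completed when a UDP-glucosyltransferase adds glucose and a sulfotransferase adds sulfate. APS3 codes for an ATP sulfurylase and SIR for the plastid sulfite reductase. SDI2 belongs to the SDI genes, which rise in sulfur shortage and are known to repress glucosinolate synthesis. UGT74B1 and UGT74C1 code for the glucosyltransferases of that pathway. CAT2 codes for the main leaf catalase, which removes the hydrogen peroxide made in photorespiration, a process that high CO2 holds down.

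The values are log2 signals made with RMA, and differences are log2 differences with their standard errors after ±. A gene is said to rise, fall or be called where limma, fitted to all 30 arrays, gave an adjusted p below 0.05 (Benjamini-Hochberg over all 22746 probe sets). Groups are said not to overlap where every array of 1 group lay above every array of the other. Over the comparisons of 2 groups this held for 9.72% to 36.2% of all probe sets. The leaf genes RCA (mean 14.09) and SBPASE (12.78) lay above 99.4% of probe sets, while the root gene PYK10 was at 3.73, above only 8.92%. These were the 3 of 17 tissue markers to which the annotation gave a probe set, since it listed no gene for 8730 of the 22746 probe sets. The transcript of CAT2 was not analysed here, since the annotation assigned 0 probe sets to it alone. Arrays of a group correlated at 0.9845 to 0.9965. The BioB spike-in control was at 7.73 to 7.96 in Col-0 at hCO2, below all its SD2 (8.14 to 8.37), SD4 (8.14 to 8.18) and LD2 (8.03 to 8.19) arrays. The 25S ribosomal RNA control was at 6.45 to 6.77 in cat2-1 at hCO2 and higher in all 12 of its air arrays (6.96 to 8.77). In leaf RNA, fewer cells of a type and less transcript per cell cannot be told apart.

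In the wild type APS3, SIR and both glucosyltransferase genes fell after the move to air in short days. SDI2 was not called there, at −0.63 at SD2 and −0.13 at SD4. At SD2 4 of the 5 genes fell (20% of all probe sets were called, 10.5% lower), and at SD4 the same 4 fell (2.55% called, 0.989% lower). At LD2 0 of 5 were called by limma (11.5% of all probe sets), with 2 at an unadjusted p below 0.05, and at LD4 1 was (16.3%). In cat2-1 2 of 5 were called at each time: SDI2 up and SIR down at SD2 (17.7% of all probe sets) and SD4 (12.4%), SDI2 up and UGT74B1 down at LD2 (20.2%), and SDI2 and APS3 up at LD4 (14.7%, 6.7% higher). Long days gave higher values than short days in Col-0 for 3 genes at day 2 (11.8% called, 6.1% higher) and 2 at day 4 (13.5% called, 7.11% higher), and in cat2-1 for 1 gene at day 2 (16.1%) and 1 at day 4 (11.8%). A single call among 5 genes is close to the share of all probe sets in most of these comparisons. The air comparisons of a genotype all subtract the same 3 hCO2 arrays, so they are not independent of each other. Because the 5 genes were chosen with earlier results of these data known, the shares do not test them as a set.

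**Figure D1:**
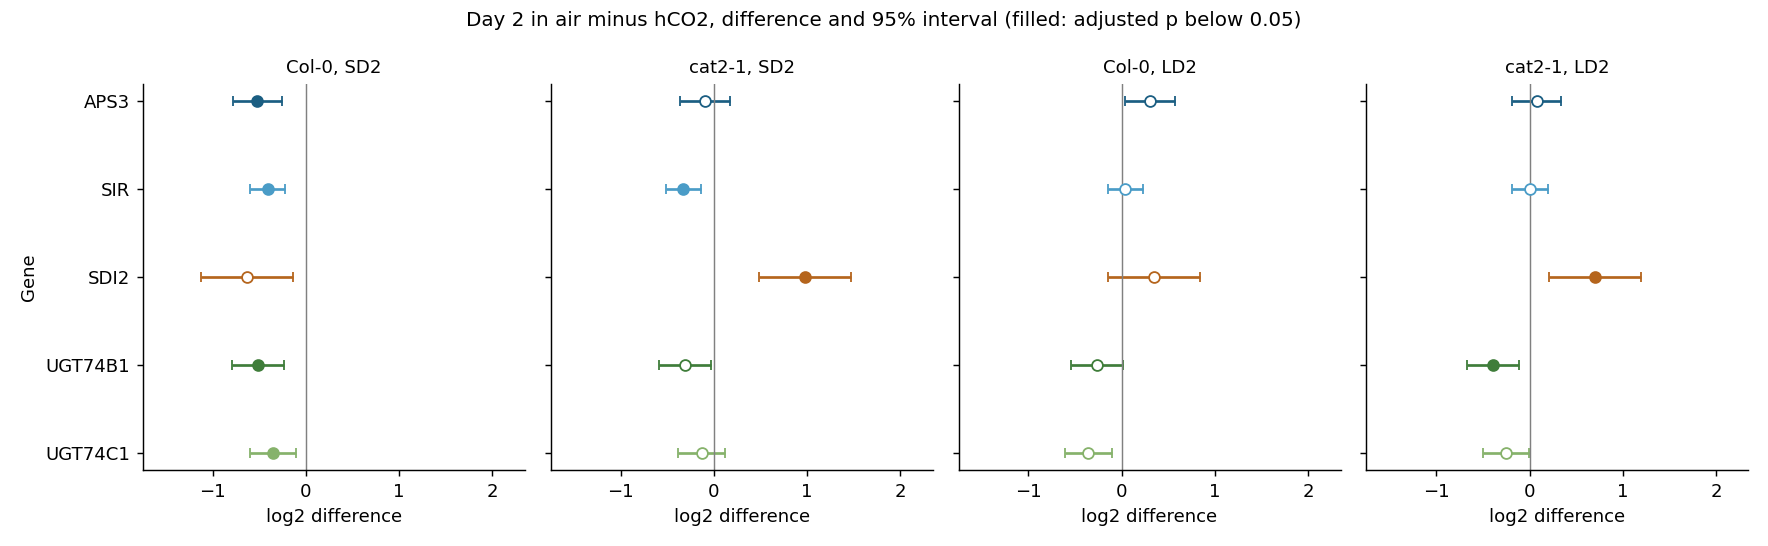
Log2 difference of day 2 in air from hCO2 (x axis) for the 5 genes (y axis), in each genotype and day length. Bars are 95% intervals before adjustment for multiple tests, and filled points had an adjusted p below 0.05. In Col-0 at SD2 all 5 points lie below 0, from −0.63 to −0.35, while SDI2 of cat2-1 at SD2 lies at 0.98.

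Between the genotypes SDI2 at SD2 was the 1 gene called, among 5 (14.2% of all probe sets). At hCO2 (0.0132% of all probe sets called), SD4 (1.69%), LD2 (1.15%) and LD4 (0.725%) limma called 0 of 5, with 2, 1, 2 and 0 at an unadjusted p below 0.05. Weighting the arrays by their spread called all 5 genes lower in cat2-1 at hCO2 and 2 at LD2, but with these weights 7694 of all 22746 probe sets were called at hCO2 and 663 at LD2. Day 4 and day 2 gave 0 calls in 20 tests, with 4 at an unadjusted p below 0.05. Among all probe sets 0.0484% and 1.94% were called in Col-0 in short and long days, and 0.95% and 1.7% in cat2-1.

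APS3, the ATP sulfurylase gene, fell in Col-0 in air in short days and was higher in long days. Its signal in Col-0 was 9.69, 9.21 and 9.37 at hCO2, 8.78, 8.90 and 9.04 at SD2, and 8.44, 8.79 and 8.82 at SD4. It was 9.60, 9.62 and 9.98 at LD2 and 9.57, 9.48 and 9.46 at LD4. The short-day arrays thus all lay below the hCO2 and the long-day arrays, with no overlap. Against hCO2, 36.1% of all probe sets had no overlap at SD2 and 20.4% at SD4. Between long and short days the share was 31.4% at day 2 and 24.6% at day 4. The fall from hCO2 was −0.52 ± 0.13 at SD2 (adjusted p = 0.00621, limma) and −0.75 ± 0.13 at SD4 (adjusted p = 0.00191, limma), a 1.68-fold difference. The SD4 call was lost with the 6 arrays of the comparison fitted alone (adjusted p = 0.0804), as were those of the other 3 genes called there (up to 0.0994). Without Col-0 hCO2 replicate 1 the SD2 value was −0.39 (adjusted p = 0.0524). With the BioB control as a covariate it was −0.43 (adjusted p = 0.168, where the range over all alternatives was 0.000111 to 0.168). Long days exceeded short days by 0.82 ± 0.13 at both day 2 (adjusted p = 8.32e-05, limma) and day 4 (adjusted p = 8.41e-05, limma), and both calls were kept in every alternative.

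In cat2-1 APS3 was not called against hCO2 in short days. Its signal was 9.16, 9.23 and 9.35 at hCO2 and 9.29, 9.06 and 9.12 at SD2, which overlap (−0.09 ± 0.13). At SD4 it was 8.85, 8.96 and 8.86, below every hCO2 array, with a difference of −0.36 ± 0.13 (adjusted p = 0.0704, limma). Of all probe sets 25.3% had no overlap there. The interaction of genotype and air was 0.43 ± 0.18 at SD2 (adjusted p = 0.178, limma) and 0.39 ± 0.18 at SD4 (adjusted p = 0.723, limma). Array weights called both interactions (0.66 and 0.59, adjusted p = 0.00193 and 0.0136, where the highest over all alternatives were 0.468 and 1) and the SD4 fall (−0.28, adjusted p = 0.0157, where the highest was 0.503). Over all probe sets these weights raised the calls from 1366 to 6282 for the SD2 interaction and from 203 to 1671 at SD4. For the difference of SD4 from hCO2 they raised them from 2812 to 9551. The estimation of the weights stopped before it converged. The cat2-1 arrays read 9.42, 9.33 and 9.22 at LD2 and 9.90, 9.76 and 9.46 at LD4. At LD4 all 3 were above hCO2, by 0.46 ± 0.13 (adjusted p = 0.0165, limma), a call lost without cat2-1 hCO2 replicate 1 or 2 or LD4 replicate 1 or 2 (0.36 to 0.45, adjusted p = 0.0552 to 0.123) and with the 6 arrays of the comparison fitted alone (adjusted p = 0.0866). The share of all probe sets without overlap between LD4 and hCO2 was 27.1%. Long days exceeded short days by 0.81 ± 0.13 at day 4 (adjusted p = 7.51e-05, limma) and by 0.17 ± 0.13 at day 2, where the 95% interval ran from −0.10 to 0.43.

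The effect of day length on APS3 at day 2 differed between the genotypes. The interaction, cat2-1 minus Col-0, was −0.66 ± 0.18 (adjusted p = 0.0263, limma), in a comparison with 7.72% of all probe sets called (3.58% lower). At day 4 it was −0.01 ± 0.18, with a 95% interval of −0.38 to 0.36, and 0 of 5 genes were called there by limma (0.862% of all probe sets; 0 at an unadjusted p below 0.05). Whether day 2 and day 4 differ in this was not tested. The day 2 call was lost without Col-0 SD2 replicate 1 or 2, Col-0 LD2 replicate 3, cat2-1 SD2 replicate 1, or cat2-1 LD2 replicate 2 or 3 (−0.66 to −0.53, adjusted p = 0.0536 to 0.0827). It was also lost with each array centred on its median (−0.59, adjusted p = 0.0643). The genotype difference itself ran from −0.41 ± 0.13 at LD2 to 0.25 ± 0.13 at SD2. The arrays did not overlap at either, as was so for 20% of all probe sets at LD2 and 35.4% at SD2, and neither was called. With array weights the LD2 difference was −0.46 (adjusted p = 0.0345, where the range over all alternatives was 0.0345 to 0.372).

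**Figure D2:**
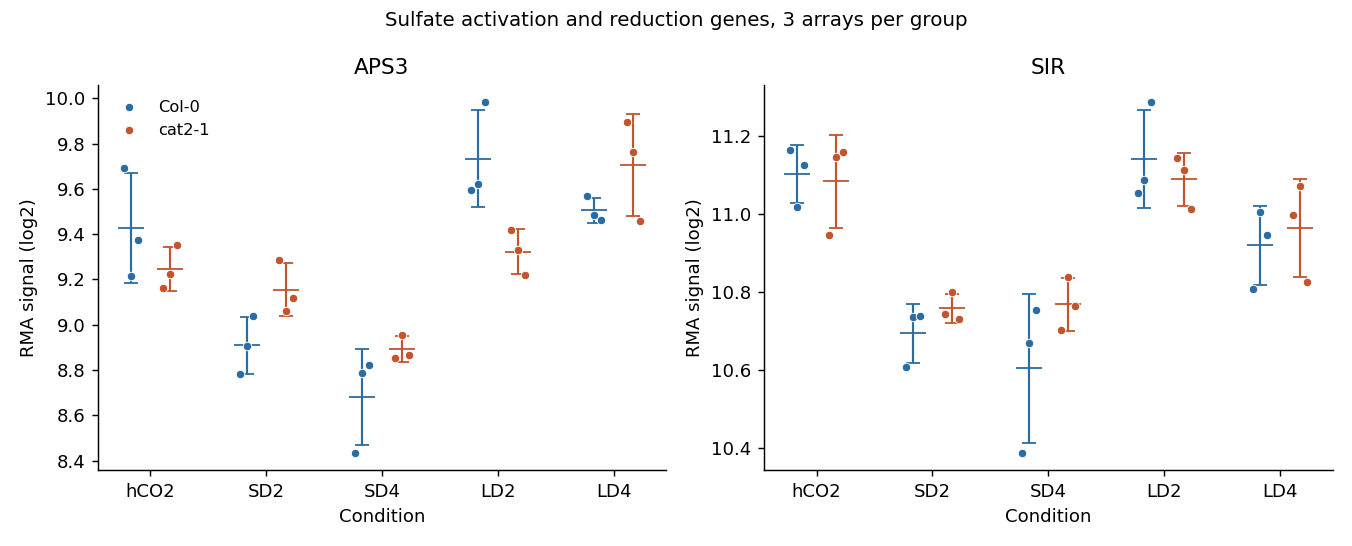
Signal (log2, y axis) of APS3 and SIR on each array (points) by condition (x axis) and genotype, with group means and standard deviations (bars, n = 3). The short-day groups are the lowest for both genes, from 8.68 to 9.15 for APS3 and from 10.60 to 10.77 for SIR.

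SIR, the single sulfite reductase gene of the plastid, showed the short-day fall in both genotypes. In Col-0 it measured 11.16, 11.02 and 11.13 at hCO2, 10.61, 10.74 and 10.74 at SD2, and 10.39, 10.67 and 10.75 at SD4. In cat2-1 it measured 10.95, 11.15 and 11.16 at hCO2, 10.74, 10.80 and 10.73 at SD2, and 10.70, 10.84 and 10.76 at SD4. All 12 short-day arrays were thus below all 6 hCO2 arrays. Of all probe sets, 36.1% and 20.4% had no overlap with hCO2 in Col-0 at SD2 and SD4, and 30.8% and 25.3% in cat2-1. The falls in Col-0 were −0.41 ± 0.09 at SD2 (adjusted p = 0.00315, limma) and −0.50 ± 0.09 at SD4 (adjusted p = 0.00325, limma). In cat2-1 they were −0.33 ± 0.09 at SD2 (adjusted p = 0.0139, limma) and −0.32 ± 0.09 at SD4 (adjusted p = 0.025, limma). With the BioB covariate the SD2 fall of Col-0 was −0.37 (adjusted p = 0.0997). The cat2-1 calls were lost with the 25S control as a covariate (−0.26 and −0.23, adjusted p = 0.0799 and 0.237), with arrays centred on their median (−0.30 and −0.27, adjusted p = 0.0531 and 0.0955) and with the 6 arrays of the comparison fitted alone (adjusted p = 0.0616 and 0.111). The SD2 call was lost without cat2-1 hCO2 replicate 2 (−0.30, adjusted p = 0.072), and the SD4 call without cat2-1 hCO2 replicate 2 or 3 or SD4 replicate 1 or 3 (−0.31 to −0.28, adjusted p = 0.0677 to 0.109).

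In long days SIR was not called against hCO2. Col-0 arrays were at 11.05, 11.09 and 11.29 at LD2 and 10.81, 11.01 and 10.95 at LD4. The cat2-1 arrays were at 11.14, 11.11 and 11.01 at LD2 and 10.997, 11.07 and 10.83 at LD4. The difference of LD2 from hCO2 was 0.04 ± 0.09 in Col-0 and 0.01 ± 0.09 in cat2-1, with 95% intervals of −0.15 to 0.23 and −0.18 to 0.19. At LD4 it was −0.18 ± 0.09 in Col-0 (95% interval −0.37 to 0.01, adjusted p = 0.198, limma), where every LD4 array was below every hCO2 array, and −0.12 ± 0.09 in cat2-1. In that Col-0 comparison 25.6% of all probe sets had no overlap. Against short days SIR was higher by 0.45 ± 0.09 at day 2 in Col-0 (adjusted p = 0.00158, limma), by 0.32 ± 0.09 at day 4 in Col-0 (adjusted p = 0.0211, limma) and by 0.33 ± 0.09 at day 2 in cat2-1 (adjusted p = 0.0135, limma). The first of these was called in every alternative. The day 4 call was lost without Col-0 SD4 replicate 1 or LD4 replicate 2 or 3 (0.21 to 0.30, adjusted p = 0.0669 to 0.169) and in 4 other alternatives (0.28 to 0.33, adjusted p = 0.0519 to 0.211), and the cat2-1 call without LD2 replicate 1 (0.31, adjusted p = 0.0527). At day 4 in cat2-1 the difference was 0.20 ± 0.09 (adjusted p = 0.195, limma). Genotype differences of SIR lay between −0.05 and 0.17, none called, and the widest 95% limits were −0.24 and 0.35.

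**Figure D3:**
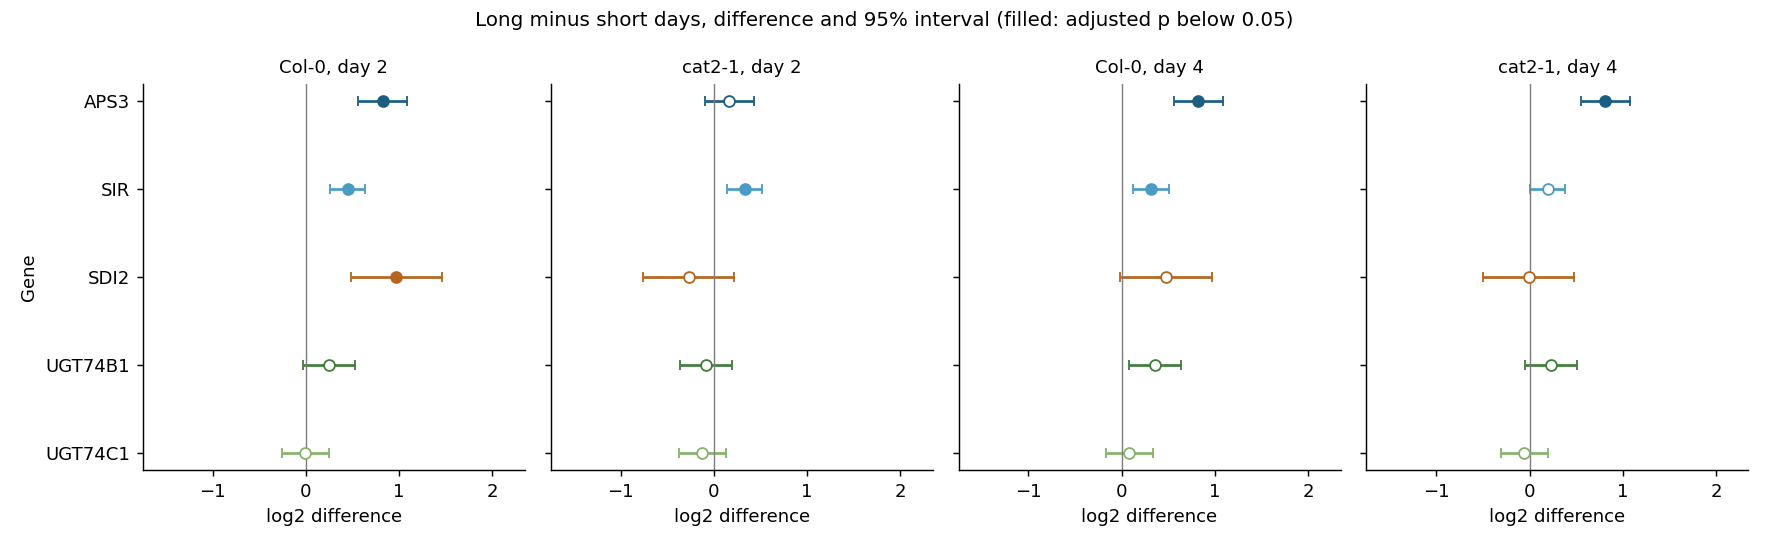
Log2 difference of long from short days (x axis) for the 5 genes (y axis), by genotype and day. Bars are 95% intervals before adjustment, and filled points had an adjusted p below 0.05. APS3 is filled in 3 panels (0.81 to 0.82) and lies at 0.17 in cat2-1 at day 2, while UGT74C1 lies within 0.12 of 0 in all 4.

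SDI2, the sulfur shortage gene, was the member that separated the genotypes. At SD2 its signal was 7.62, 7.52 and 7.88 in Col-0 and 9.24, 9.13 and 8.72 in cat2-1, with no overlap, as for 35.4% of all probe sets. The difference of 1.36 ± 0.24 (adjusted p = 0.000414, limma) is 2.56-fold, and it was called in every alternative, with values from 1.17 to 1.51. At hCO2 the genotypes overlapped, with 8.80, 7.87 and 8.23 in Col-0 and 8.02, 7.72 and 8.42 in cat2-1. The genotypes also differed in the change from hCO2 to SD2, with an interaction of 1.60 ± 0.34 (adjusted p = 0.00471, limma), where 1 of 5 genes and 6.01% of all probe sets were called, and it too was called in every alternative. For the interactions at SD4 (0.892% of all probe sets called), LD2 (0.185%) and LD4 (0.123%) limma called 0 of 5 genes, with 2, 0 and 1 at an unadjusted p below 0.05.

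The interaction was made of differences of opposite sign, of which only that of cat2-1 was called. In cat2-1 SDI2 rose by 0.98 ± 0.24 from hCO2 to SD2 (adjusted p = 0.00529, limma), and this was called in every alternative. Every SD2 array was above every hCO2 array, where 30.8% of all probe sets had no overlap. In Col-0 the difference was −0.63 ± 0.24 and was not called (adjusted p = 0.0657, limma), and the lowest hCO2 array (7.87) lay just below the highest SD2 array (7.88). That difference was called with a replicate block (adjusted p = 0.0461), with dim probe sets left out (adjusted p = 0.0482), with array weights (−0.91, adjusted p = 0.00113), and without Col-0 hCO2 replicate 2 (−0.84, adjusted p = 0.0287) or cat2-1 SD4 replicate 1 (adjusted p = 0.0416), where the highest value over all alternatives was 0.796. Array weights raised the calls over all probe sets in this comparison from 4546 to 7013. The Col-0 difference itself ran from −0.91 to −0.18 over the alternatives. At SD4 Col-0 read 8.45, 8.33 and 7.73 and cat2-1 9.34, 8.38 and 8.67. These overlap, and the genotype difference of 0.63 ± 0.24 was not called (adjusted p = 0.334, limma). The spread of this gene was widest in cat2-1 at SD4 and in Col-0 at hCO2, with standard deviations of 0.49 and 0.47.

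In long days the genotypes were not called apart for SDI2. Col-0 arrays were at 8.73, 8.56 and 8.65 at LD2 and 8.54, 8.73 and 8.67 at LD4, and cat2-1 arrays at 8.88, 8.38 and 9.02 at LD2 and 8.82, 8.79 and 8.75 at LD4. At LD4 every cat2-1 array was just above every Col-0 array, as 12.4% of all probe sets were without overlap there. The genotype difference was 0.11 ± 0.24 at LD2 and 0.14 ± 0.24 at LD4, with 95% intervals of −0.38 to 0.61 and −0.35 to 0.63. Long days exceeded short days in Col-0 by 0.97 ± 0.24 at day 2 (adjusted p = 0.00781, limma), with a call in every alternative. These groups did not overlap, as for 31.4% of all probe sets. In cat2-1 the difference of long from short days at day 2 was −0.27 ± 0.24. The interaction of genotype and day length at day 2 was −1.24 ± 0.34 (adjusted p = 0.0241, limma), which with APS3 made 2 of 5 genes. That call was lost without Col-0 SD2 replicate 2, Col-0 LD2 replicate 1, cat2-1 SD2 replicate 1 or 2 or cat2-1 LD2 replicate 2 (−1.20 to −1.05, adjusted p = 0.0597 to 0.0844).

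From hCO2, SDI2 was also called higher in cat2-1 at SD4 (0.74 ± 0.24, adjusted p = 0.0427, limma), LD2 (0.71 ± 0.24, adjusted p = 0.0381) and LD4 (0.73 ± 0.24, adjusted p = 0.0394). These calls were close to the threshold. Each was lost without cat2-1 hCO2 replicate 1 or 2. The SD4 call was also lost without cat2-1 SD4 replicate 1 or 3 or Col-0 LD2 replicate 3, the LD2 call without cat2-1 LD2 replicate 1 or 3, and the LD4 call without any of the 3 LD4 arrays (0.47 to 0.80 and adjusted p = 0.0501 to 0.239 over these fits). With the 25S control as a covariate the values were 0.68, 0.68 and 0.68, and none was called (adjusted p = 0.179, 0.0661 and 0.127). With the 6 arrays of each comparison fitted alone the adjusted p was 0.174, 0.078 and 0.051.

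**Figure D4:**
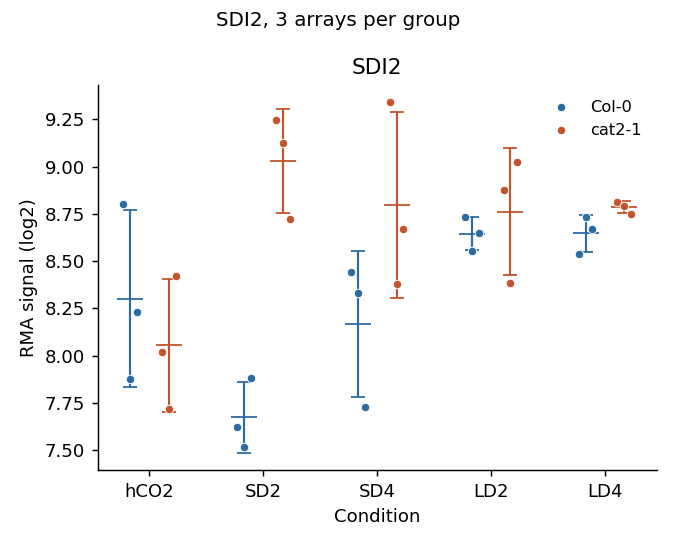
Signal (log2, y axis) of SDI2 on each array (points) by condition (x axis) and genotype, with group means and standard deviations (bars, n = 3). At SD2 the Col-0 arrays sit between 7.52 and 7.88 and the cat2-1 arrays between 8.72 and 9.24, while the genotypes overlap at hCO2.

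UGT74B1, which glucosylates the core of glucosinolates, was highest in wild-type leaves at 3000 ppm CO2. Col-0 arrays were at 10.47, 10.08 and 10.42 at hCO2, 9.64, 9.95 and 9.87 at SD2, and 9.77, 9.90 and 9.67 at SD4. Every short-day array was below every hCO2 array, and 36.1% of all probe sets had no overlap with hCO2 at SD2 and 20.4% at SD4. The gene fell by 0.51 ± 0.14 on the log2 scale at SD2 (adjusted p = 0.00984, limma) and by 0.55 ± 0.14 at SD4 (adjusted p = 0.0274, limma). The SD2 call was lost without Col-0 hCO2 replicate 1 or SD2 replicate 1 (−0.44 to −0.42, adjusted p = 0.0541 to 0.0553), and the SD4 call without Col-0 hCO2 replicate 1 or 3 or SD4 replicate 1 or 3 (−0.55 to −0.48, adjusted p = 0.0815 to 0.134). With the BioB control as a covariate the values were −0.12 (adjusted p = 0.686) and −0.26 (adjusted p = 0.365). Long-day arrays were at 10.06, 10.001 and 10.14 (LD2) and 9.78, 10.16 and 10.45 (LD4), neither called against hCO2.

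In cat2-1 UGT74B1 was called only at LD2 against hCO2 among the comparisons of air with CO2. The arrays were at 9.95, 9.90 and 10.22 at hCO2, 9.90, 9.61 and 9.63 at SD2, and 9.80, 9.65 and 9.70 at SD4. They were at 9.79, 9.63 and 9.46 at LD2 and 9.93, 9.99 and 9.93 at LD4. The LD2 arrays lay below all hCO2 arrays by −0.40 ± 0.14 (adjusted p = 0.0409, limma), a call lost without cat2-1 hCO2 replicate 1 or 3 or LD2 replicate 2 or 3 (−0.43 to −0.30, adjusted p = 0.0686 to 0.179). It was also lost with the 25S covariate (−0.35, adjusted p = 0.0897), with arrays centred (−0.34, adjusted p = 0.068) and with the 6 arrays of the comparison fitted alone (adjusted p = 0.0789). Of all probe sets 34.8% had no overlap between LD2 and hCO2. The SD2 and SD4 differences from hCO2 were −0.31 and −0.30, and the interactions of genotype and air were not called (0.20 ± 0.19 at SD2, 95% interval −0.20 to 0.59). Array weights called the SD2 and SD4 differences (−0.27 and −0.25, adjusted p = 0.00779 and 0.0151, where the highest over all alternatives were 0.354 and 0.524). They also called the SD2 interaction (0.37, adjusted p = 0.0378, where the highest was 0.907), which ran from −0.08 to 0.37 over the alternatives. Against hCO2 these weights raised the calls over all probe sets from 4030 to 10143 at SD2 and from 2812 to 9551 at SD4. For the SD2 interaction they raised them from 1366 to 6282. At LD2 all cat2-1 arrays were below all Col-0 arrays, where 20% of all probe sets had no overlap. The difference was −0.44 ± 0.14 (adjusted p = 0.125, limma). This difference was called with array weights (−0.43, adjusted p = 0.0284) and with the BioB covariate (−0.54, adjusted p = 0.00623), where the range over all alternatives was 0.00623 to 0.4.

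UGT74C1, the glucosyltransferase linked to methionine-derived glucosinolates, had its highest group mean in the same group. Its Col-0 arrays were at 9.99, 10.06 and 10.08 at hCO2 and all 12 Col-0 air arrays were lower, from 9.41 to 9.88. The share of all probe sets without overlap with hCO2 was 36.1% at SD2, 20.4% at SD4, 33% at LD2 and 25.6% at LD4. The falls were −0.35 ± 0.12 at SD2 (adjusted p = 0.0413, limma), −0.46 ± 0.12 at SD4 (adjusted p = 0.0406, limma) and −0.37 ± 0.12 at LD4 (adjusted p = 0.0352, limma). At LD2 it was −0.36 ± 0.12 and was not called (adjusted p = 0.0556, limma). It was called there in 6 alternatives, 4 of them without a single array: Col-0 LD2 replicate 3, Col-0 LD4 replicate 1, or replicate 3 of cat2-1 at hCO2 or LD2 (−0.45 to −0.36, adjusted p = 0.0332 to 0.0479). All 3 calls were lost in several alternatives. The SD2 and SD4 calls were lost without any 1 of the 6 arrays compared, and the SD4 call also without cat2-1 hCO2 replicate 1. The LD4 call was lost without any Col-0 hCO2 array or LD4 replicate 1 (−0.53 to −0.25 and adjusted p = 0.0504 to 0.25 over these fits). Centring each array on its median gave −0.26, −0.42 and −0.35 with adjusted p = 0.128, 0.0759 and 0.0618, and array weights gave −0.31 at LD4 (adjusted p = 0.126). With the 6 arrays fitted alone the LD4 adjusted p was 0.151, and further quantile normalization gave 0.052 at SD4. With the BioB covariate the SD2 and SD4 values were −0.11 and −0.28 (adjusted p = 0.734 and 0.366).

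In cat2-1 no comparison between conditions was called for UGT74C1. With limma its interactions of genotype and air were not called either, so the genotypes were not shown to differ in the change from hCO2. They were 0.22 ± 0.17 at SD2, 0.35 ± 0.17 at SD4, 0.11 ± 0.17 at LD2 and 0.21 ± 0.17 at LD4. In cat2-1 the gene was at 9.73, 9.66 and 9.94 at hCO2, 9.79, 9.57 and 9.58 at SD2, and 9.69, 9.61 and 9.70 at SD4. It was at 9.65, 9.61 and 9.31 at LD2 and 9.59, 9.80 and 9.46 at LD4. At hCO2 every cat2-1 array was below every Col-0 array (−0.27 ± 0.12, adjusted p = 0.712, limma). Of all probe sets 9.72% had no overlap in this comparison. Between long and short days its differences were −0.12 to 0.08, with 95% limits no wider than −0.37 and 0.33.

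**Figure D5:**
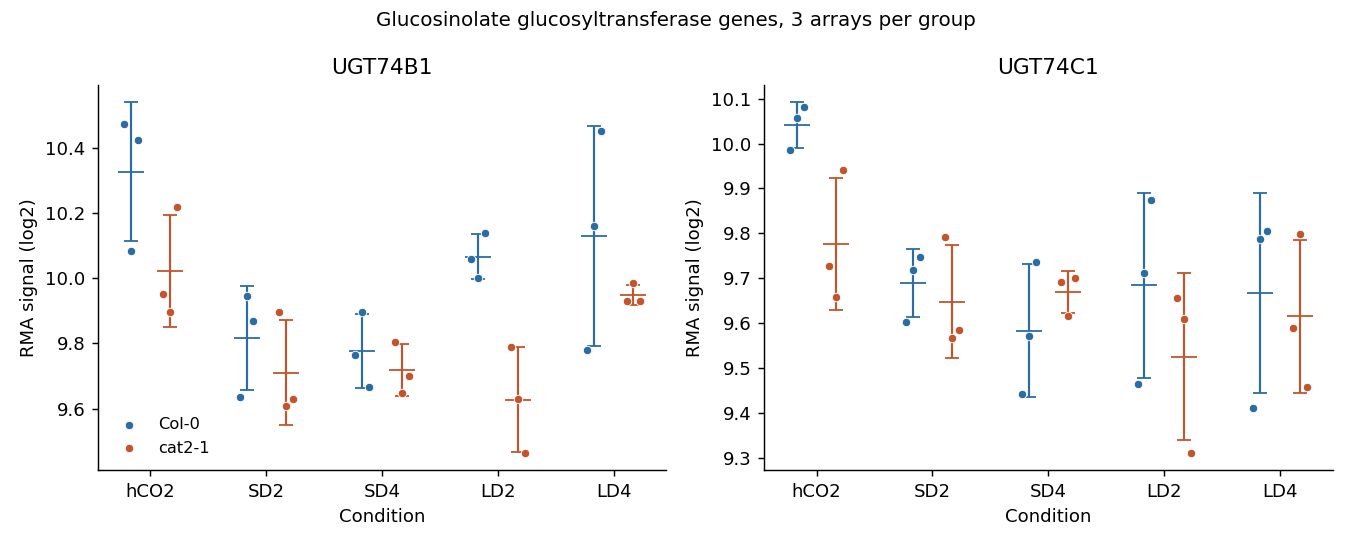
Signal (log2, y axis) of UGT74B1 and UGT74C1 on each array (points) by condition (x axis) and genotype, with group means and standard deviations (bars, n = 3). The Col-0 hCO2 group has the highest mean of both genes, 10.33 and 10.04.

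The members differed in how far their group means spread and in which group was highest. The span over the 10 groups was 1.36 for SDI2, from Col-0 SD2 (7.67) to cat2-1 SD2 (9.03), and 1.05 for APS3, from Col-0 SD4 (8.68) to Col-0 LD2 (9.73). It was 0.70 for UGT74B1, 0.54 for SIR and 0.52 for UGT74C1. Of all probe sets 93.9% had a smaller span than SDI2 and 60.1% a smaller span than UGT74C1. The standard deviation within groups was 0.31 for SDI2, 0.16 for APS3, 0.17 for UGT74B1, 0.15 for UGT74C1 and 0.11 for SIR. The descending order for SDI2 was cat2-1 SD2, SD4, LD4 and LD2, then Col-0 LD4, LD2, hCO2 and SD4, then cat2-1 hCO2 and last Col-0 SD2. Arrays of neighbouring groups in the order of levels overlapped for all 9 pairs of SDI2, SIR and UGT74B1, for 8 of UGT74C1 and for 7 of APS3. Neighbours in a sorted order are close by construction, so this overlap is no test of a difference. The order of neighbouring groups is a description only.

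Across the 10 group means APS3 and SIR moved together (Pearson r = 0.81, Spearman rho = 0.78), and UGT74B1 with UGT74C1 (r = 0.79, rho = 0.66). SDI2 correlated at 0.40 with APS3, 0.19 with SIR, −0.22 with UGT74B1 and −0.32 with UGT74C1. These are descriptions, since the group means come from the same 30 arrays, with a shared normalization. Deviations of single arrays from their group means also correlated, at 0.74 for APS3 and SIR, 0.67 for SIR and UGT74C1 and 0.60 for the glucosyltransferase genes. They correlated at 0.48 for APS3 and UGT74C1 and for SDI2 and UGT74B1, and the other 5 pairs lay between −0.13 and 0.39. Among 1380 single-gene probe sets whose group means spanned at least 1, those most like APS3 were AT3G23550 (r = 0.96), AT2G30600 (0.94) and AT3G16530 (0.94). For SIR they were AT2G45180 (0.96), AT1G04040 (0.96) and the tetraspanin gene TET10 (0.94). For SDI2 they were the subtilase gene ATSBT5.2 (0.94), the receptor-like kinase gene AT1G61380 (0.93) and AT4G19880 (0.92). UGT74B1 was closest to AT1G35710 (0.92), AT2G24160 (0.90) and AT2G15042 (0.90), and UGT74C1 to AT1G65370 (0.85), AT4G36520 (0.83) and AT4G16660 (0.80). Spearman rho was lower for these genes of UGT74C1, at 0.66, 0.53 and 0.48, than for those of the other members (0.78 to 0.98).

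Few other genes of these pathways could be set beside the members, since the annotation used gave a probe set of their own to 14 of 100 genes in 10 lists, the 5 members among them. The others were not analysed here. Of the 2 other sulfur genes, APS4, another ATP sulfurylase gene, was not called in any of the 27 comparisons. In Col-0, where APS3 fell, its difference from hCO2 was 0.24 ± 0.28 at SD2 and 0.00 ± 0.28 at SD4. Its differences of cat2-1 from Col-0 were −0.51 at hCO2, −0.49 at SD2, −0.42 at SD4, −0.59 at LD2 and −0.74 at LD4. BGLU28, a thioglucosidase gene that rises in sulfur shortage, rose at LD2 against hCO2 in cat2-1 by 2.22 ± 0.49 (adjusted p = 0.00253, limma). It was 1.33 higher in cat2-1 than in Col-0 at SD2, without a call (adjusted p = 0.0723, limma), where SDI2 was called. At LD2 BGLU28 was 1.56 higher in cat2-1, also without a call (adjusted p = 0.142, limma), where SDI2 differed by 0.11. The interaction of genotype and day length at day 2 was 0.22 for BGLU28, not called, and −1.24 for SDI2. BGLU28 (mean log2 signal 4.52), AOP3 (4.52) and UGT74F1 (4.76) were dim, below the mean of 5 that a filter would keep.

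Of the 5 other glucosinolate genes none was called between the genotypes or fell in air. Their median difference from hCO2 at Col-0 SD2 was −0.01, and that of all probe sets 0.03. The glucosinolate transporter gene GTR2 was higher in long than in short days in all 4 comparisons (0.57 to 0.70, adjusted p = 0.00424 to 0.024, limma), whereas GTR1, of the same family, fell in Col-0 at day 4 (−0.61 ± 0.18) and in cat2-1 at day 2 (−0.77 ± 0.18). GTR2 rose against hCO2 in Col-0 at LD2 (0.51 ± 0.16) and LD4 (0.61 ± 0.16), and GTR1 in cat2-1 at SD2 (0.50 ± 0.18). BCAT4, which starts the chain elongation of methionine, was higher in long days in Col-0 at day 4 (0.85 ± 0.23), and the glutathione transferase gene GSTU20 in Col-0 at day 2 (0.32 ± 0.10) and day 4 (0.36 ± 0.10). AOP3, a side-chain modifying gene, was not called in any comparison. Of the 2 other UGT74 genes, UGT74D1 was 2.31 ± 0.18 higher in cat2-1 at SD2 (adjusted p = 2.08e-09, limma), where UGT74B1 differed by −0.11 and UGT74C1 by −0.04, and UGT74F1 was not called in any comparison. UGT74D1 was also called higher in cat2-1 than in Col-0 at SD4 (2.37 ± 0.18) and LD2 (0.77 ± 0.18), but not at LD4 (0.64 ± 0.18). Against hCO2 it rose in cat2-1 at SD2, SD4, LD2 and LD4 (0.71 to 2.24). In long days UGT74D1 was higher than in short days in Col-0 at day 2 (0.69 ± 0.18). In cat2-1 it was lower in long days at day 2 (−0.84 ± 0.18) and day 4 (−1.54 ± 0.18). Its interactions of genotype with day length were called at day 2 (−1.53 ± 0.25) and day 4 (−1.73 ± 0.25). Those with air were called at SD2 (2.38 ± 0.25) and SD4 (2.44 ± 0.25).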

How the data were processed

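Leaf RNA was hybridised to 30 ATH1 arrays, 1 per sample. The deposited tables hold a log2 signal for each of 22810 probe sets. The submitters' processing notes name RMA and the affy package. Versions and a genome build are not given in the sources used here. RMA normalizes quantiles between arrays, so differences are relative to the other probe sets of an array. The number of arrays limits the precision. The 64 control probe sets were set aside. A probe set was named where the platform annotation gave it exactly 1 gene (13513), and 13436 of these matched a locus of the RefSeq table (TAIR10.1).

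A linear model with a mean per group was fitted to all 30 arrays in limma 3.58.1 (R 4.3.3) with lmFit and eBayes, for 27 comparisons, with Benjamini-Hochberg adjustment over 22746 probe sets within each. It was checked on simulated data. Tables and figures used Python 3.11.15, pandas 2.3.3 and matplotlib 3.10.9. Named were the members, the measured genes of 10 pathway lists, and, for each member, the 3 single-gene probe sets with the highest Pearson correlation of group means. The members and lists were chosen with earlier results of these data known. Alternatives were the replicate number as a block, fitting the 6 arrays of a comparison alone (12 for interactions), a filter of probe sets with mean log2 below 5, quantile normalization, median centring, eBayes with trend and robust, array weights and single arrays left out. The BioB and 25S covariates, and the block with the 6 arrays fitted alone, were added after seeing the data.

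Residuals of arrays with the same replicate number correlated above 0.1 for every pair between the genotypes at SD4 (0.62, 0.31 and 0.63) and at LD4 (0.44, 0.45 and 0.22), and in no other comparison of 2 groups. Single pairs elsewhere were as far from 0. Between the genotypes at hCO2 they were at −0.09, 0.66 and 0.66, and between LD4 and SD4 in Col-0 at −0.51, −0.46 and −0.50. The labels do not say what the numbers share.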

Additional observations from a re-analysis of the deposited data

Results flagged for a closer look

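For SDI2 an interaction of genotype with air was called at SD2, where 6.01% of all probe sets were called. With day length at day 2 it was called for SDI2 and APS3 (7.72% of all probe sets, 3.58% lower). The call with air was kept in every alternative. Both day-length calls were lost without certain single arrays, and that of APS3 also with arrays centred on their median. For SDI2 the interaction with air at SD2 was 1.60 ± 0.34 (adjusted p = 0.00471, limma), from 0.98 in cat2-1 and −0.63 in Col-0, the latter not called. With day length at day 2 it was −1.24 ± 0.34 (adjusted p = 0.0241, limma), from −0.27 in cat2-1 and 0.97 in Col-0, which shares the SD2 arrays with the first. For APS3 the interaction with day length at day 2 was −0.66 ± 0.18 (adjusted p = 0.0263, limma), from 0.17 in cat2-1 and 0.82 in Col-0. The cat2-1 differences of −0.27 and 0.17 were not called.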

How the results depend on the processing

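Of 28 calls of members over 27 comparisons, 11 were kept whichever single array was left out and 8 in every alternative, and 0 of the 28 values changed sign. Of 107 values without a call, 40 changed sign in some alternative. The counts of calls moved as follows. Comparisons of air with CO2 in Col-0 gave 9 of 20 calls, against 4 with only the arrays compared, 3 with the BioB covariate and 4 to 10 with single arrays left out. Those in cat2-1 gave 8 of 20, against 1 with only the arrays compared, 5 with arrays centred on their median, 2 with the 25S covariate and 2 to 8 with arrays left out. Genotype gave 1 of 25, against 8 with array weights and 2 with BioB, and 1 to 1 with arrays left out. Genotype by air gave 1 of 20, against 7 with array weights, and 1 to 1. Genotype by day length gave 2 of 10, against 1 with arrays centred, and 0 to 2. Long against short days gave 7 of 20 (6 to 8), and day 4 against day 2 gave 0 (0 to 0), with limma. The estimation of array weights stopped before it converged. A replicate block added 1 call, of SDI2 in Col-0 at SD2 (10 of 20), and changed no other call of a member. The cause of these shifts was not tested, except that leaving arrays out or fitting only those compared uses fewer samples.

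Counts over all probe sets moved by more than 1.5 times in every comparison except genotype by day length at day 4. For cat2-1 against Col-0 they were 3 (2 to 7694 over the alternatives) at hCO2, 3225 (1707 to 4646) at SD2, 384 (199 to 1290) at SD4, 261 (89 to 663) at LD2 and 165 (22 to 307) at LD4. For air in Col-0 they were 4546 (701 to 7013), 581 (172 to 2195), 2609 (1173 to 5460) and 3716 (1172 to 4137) at SD2, SD4, LD2 and LD4, and in cat2-1 4030 (2363 to 10143), 2812 (1091 to 9551), 4596 (2790 to 11460) and 3338 (1363 to 9335). For day length they were 2676 (1606 to 4146) and 3062 (1314 to 3365) in Col-0 at day 2 and day 4, and 3668 (2281 to 4905) and 2676 (1954 to 4222) in cat2-1. For day 4 against day 2 they were 11 (0 to 567) and 442 (26 to 541) in Col-0 in short and long days, and 216 (93 to 510) and 387 (17 to 1400) in cat2-1. The interactions with air gave 1366 (616 to 6282), 203 (137 to 1671), 42 (13 to 894) and 28 (2 to 222), and those with day length 1755 (939 to 2796) and 196 (131 to 274).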
